A study of Gossypium hirsutum with 18 samples.

Results

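The response of Acala NemX roots to the root-knot nematode (RKN) *Meloidogyne incognita* was measured by comparing 3 infested libraries (NemX_rkn) with 3 water-treated libraries (NemX_ctl), which are 6 of the 18 RNA-seq libraries of the experiment. Acala NemX is the RKN-resistant genotype of upland cotton (*Gossypium hirsutum*) in the study. The other genotypes, Acala SJ2 (susceptible) and Wild Mexico Jack Jones (WMJJ, moderately resistant), had 3 rkn and 3 ctl libraries each and served to show where NemX differed. Seedlings aged 12 days received 5000 second-stage juveniles per plant or water only, and whole roots were collected from plants aged 23 days, so that a single time point stands for the response. All 6 groups were grown in soil in a greenhouse. Replicates were described as biological, with roots of several plants in each group, and the number of plants was not given consistently. Of the 54508 genes in the table, 46813 averaged 1 or more across the 18 libraries and were tested, while 7695 were left out.

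Juveniles of RKN enter near the root tip, move between cells to the vascular cylinder and turn selected root cells into giant cells, the feeding sites around which a gall forms. In resistant plants the juveniles may enter but feeding sites fail to develop, commonly after recognition by intracellular receptors of the NBS-LRR type and with local cell death and hormone signalling by salicylic acid, jasmonic acid and ethylene. The comparison addresses how far the transcripts of resistant roots change under infestation. In whole roots, fewer cells of a type and less RNA per cell cannot be told apart. The table names genes only by their Gohir identifiers (TM-1 UTx v2.1), and the RefSeq table at hand matched 0 of them. Functions are therefore given for no gene except a pair of candidates identified in the study's text, and markers of root tissue or of defence pathways were not analysed here. The letter and number after the prefix of an identifier give the subgenome (A or D) and the chromosome. Copies of a gene on A and D chromosomes are often near-identical, and pseudo-alignment may divide reads between them with some uncertainty.

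Values are the authors' normalized signal, close to CPM (reads per library total, scaled alike). The smallest step between low values, about the worth of 1 read, was 0.156, 0.253 and 0.253 in NemX_rkn libraries 1 to 3, and 0.262, 0.244 and 0.156 in NemX_ctl libraries 1 to 3. NemX_rkn1 and NemX_ctl3 were thus the deepest libraries of their groups, and the low values of the others rest on fewer reads. Column totals were between 1018715 and 1049994 in NemX_rkn and between 1048424 and 1096547 in NemX_ctl. Across the 46813 tested genes, log2 values correlated at 0.955 to 0.961 between NemX_rkn libraries, at 0.949 to 0.963 between NemX_ctl libraries, and at 0.933 to 0.953 between a NemX_rkn and a NemX_ctl library. In a principal component analysis of the 6 libraries, the first component (35.1% of the variance) had scores of 43.5 to 54.4 in NemX_rkn and of -52.7 to -45.6 in NemX_ctl. The second component (24.9%) set the deepest libraries apart, with scores of -49.5 in NemX_rkn1 and -65.7 in NemX_ctl3 against 22.5 to 40.2 in the other 4 libraries. Treatment therefore followed the first component, and a pattern shared by the deepest library of each group followed the second. The same pattern ran through the other genotypes: deviations from the group mean correlated at 0.193 to 0.442 between the deepest libraries of different groups. Between a deepest library and any other library of a different group they correlated at -0.299 to -0.0723. Deviations cancel within each group, so these negative values follow in part from the positive ones. Some of the libraries, which are not identified, were prepared with a different kit according to the study. It also describes runs on MiSeq and HiSeq instruments without assigning libraries to them. Kit, instrument and depth therefore cannot be told apart here.

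**Figure D1:**
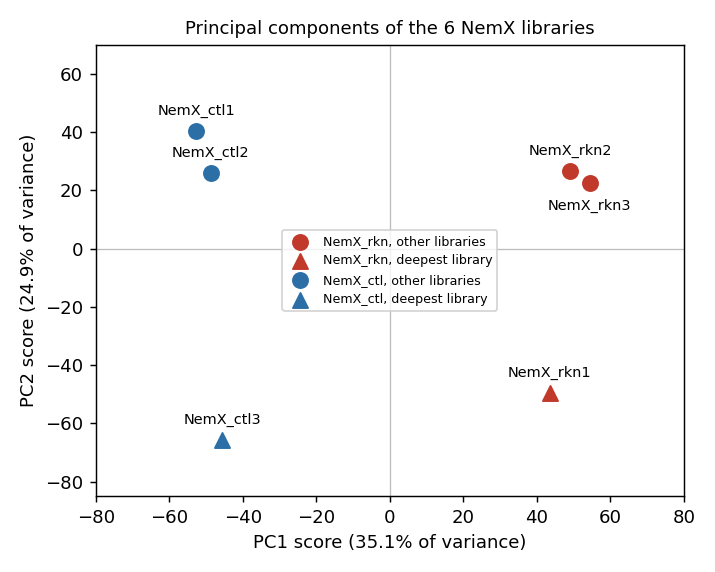
Principal component scores of the 6 NemX libraries over 46813 tested genes, with the first component on the horizontal axis and the second on the vertical axis (scores without unit). NemX_rkn (red) lies right of NemX_ctl (blue), and the deepest library of each group (triangles, NemX_rkn1 at -49.5 and NemX_ctl3 at -65.7 on the second component) lies below the others (circles).

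Few genes passed the thresholds of the study in NemX, which does not show that the others were unchanged. At an adjusted p under 0.01 with a log2 fold change beyond 1 in size (limma, Benjamini-Hochberg), 266 genes rose in NemX_rkn against NemX_ctl (0.568% of tested genes) and 312 fell (0.666%), together 578 genes (1.23%). The same thresholds called 3787 genes up (8.09%) and 2770 down (5.92%) in SJ2, and 2623 up (5.60%) and 2264 down (4.84%) in WMJJ. The SJ2 split depends on scaling: column totals were 964337 to 1015652 in SJ2_rkn and 852215 to 901899 in SJ2_ctl, and with equal library totals 3063 genes were called up and 3992 down in SJ2, with the median of all genes at -0.21 in place of -0.04. In NemX the counts were then 316 up and 251 down. Without the fold threshold, 381 genes (0.814%) were higher and 420 (0.897%) lower in NemX_rkn. At an unadjusted p below 0.05, 3944 genes (8.43%) were higher and 4187 (8.94%) lower. In each of the 578 called genes the NemX_rkn and NemX_ctl libraries did not overlap, which held for 10.2% (above) and 11.9% (below) of all tested genes.

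For 31160 of the 46813 genes (66.6%), the 95% interval of the NemX log2 fold change lay wholly between -1 and 1, so that a doubling or halving was outside the interval. This share was 85.5% among the 11703 genes with the highest level in NemX and 33.3% among the 11704 with the lowest, where the values did not settle the matter for most genes.

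The counts depend on the fit and on single libraries. With the NemX libraries alone 129 genes were called up and 240 down, with a term for the deepest libraries 404 and 461, and without an intensity trend in the variance 185 and 191. Without NemX_rkn1, NemX_rkn2 or NemX_rkn3, 156, 166 and 118 genes were called up and 171, 172 and 134 down. Without NemX_ctl1 or NemX_ctl2, 152 and 160 genes were called up and 134 and 129 down, while without NemX_ctl3 the counts were 229 and 209. Of the 266 upregulated genes, 85 (32.0%) were called without each of the 6 libraries in turn, and of the 312 downregulated genes 80 (25.6%) were. In the 2 NemX_rkn against 2 NemX_ctl libraries other than the deepest, all 266 and all 312 genes had the same sign, with medians of 1.38 and -1.42. NemX_rkn1 set against NemX_ctl3 alone gave the same sign for all of them too, with medians of 1.39 and -1.27. These are the libraries that chose the genes, and NemX_rkn and NemX_ctl overlapped in none of the called genes. The signs in any part of the libraries were thus fixed in advance. They describe these libraries and add no replication.

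Changes in NemX were mostly between a doubling and a 4-fold change. The median log2 fold change was 1.38 among upregulated genes (1.0 to 3.76) and -1.37 among downregulated genes (-3.55 to -1.0), beside -0.02 over all tested genes. A log2 fold change beyond 1.5 in size was measured for 91 upregulated and 120 downregulated genes, and one beyond 2 for 22 and 33. Upregulated genes had median log2 levels of 4.44, 4.44 and 4.47 in NemX_rkn libraries 1 to 3, against 3.07, 3.10 and 3.09 in NemX_ctl libraries 1 to 3. Downregulated genes had median log2 levels of 3.81, 3.91 and 3.74 in the NemX_rkn libraries, against 5.37, 5.29 and 5.19 in the NemX_ctl libraries. All tested genes lay at 3.09 to 3.13 in all 6 libraries.

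Strongly expressed genes were called down more often than weakly expressed ones. When the tested genes were divided into 4 equal classes by their mean level in NemX (median values 1.64, 5.002, 12.6 and 39.5), 21, 50, 70 and 171 genes were called down from the lowest to the highest class, or 0.179, 0.427, 0.598 and 1.46%. Upregulated genes numbered 28, 64, 80 and 94, or 0.239, 0.547, 0.684 and 0.803%. The median standard error of the log2 fold change was 0.375 in the lowest class and 0.173 in the highest, and its part in these shares was not tested.

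The upregulated gene with the smallest p-value was Gohir.D09G233800, which had 19.2, 21.0 and 18.6 in NemX_rkn libraries 1 to 3, against 6.68, 4.87 and 4.14 in NemX_ctl. The lowest infested library thus lay well above the highest control library. The log2 fold change was 1.83 with a standard error of 0.18 (adjusted p = 2.247e-05, limma), and the means were 19.6 ± 1.26 and 5.23 ± 1.31 (SD, n = 3 each). Levels were higher in the other genotypes: 55.3 ± 5.18 in SJ2_rkn and 39.7 ± 8.83 in SJ2_ctl, and 51.0 ± 5.03 in WMJJ_rkn and 24.6 ± 3.41 in WMJJ_ctl. Its induction in NemX exceeded that in SJ2 by 1.34 (adjusted p = 0.0008163, limma), and the difference from WMJJ, 0.79, did not pass (adjusted p = 0.08295, limma).

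Gohir.D03G170800, the other upregulated gene taken by smallest p-value, had 46.8, 41.3 and 42.0 in NemX_rkn against 13.1, 14.3 and 18.1 in NemX_ctl. Its log2 fold change, 1.495 with a standard error of 0.15 (adjusted p = 2.247e-05, limma), stood beside 1.93 in SJ2 and 1.79 in WMJJ, where it was also called. It is an example of an induction found in all 3 genotypes. The difference of NemX from SJ2 was -0.43 (95% interval -0.88 to 0.01) and that from WMJJ -0.29 (-0.74 to 0.15).

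Among downregulated genes, Gohir.A07G016200 fell to 0.633, 0.505 and 0.758 in NemX_rkn, against 8.95, 5.70 and 6.17 in NemX_ctl. The infested values are those of a few reads per library. The log2 fold change was -2.70 ± 0.25 (SE, adjusted p = 2.247e-05, limma), on a scale with 0.5 added to each value, which understates changes at such low levels. It also fell in SJ2 (-3.68) and WMJJ (-2.43). Gohir.A07G099700 fell to 22.7, 24.1 and 19.98 in NemX_rkn, against 93.4, 87.8 and 79.0 in NemX_ctl, with a log2 fold change of -1.94 and a standard error of 0.19 (adjusted p = 2.247e-05, limma). Control levels of this gene lay close together, with 86.7 ± 7.27 in NemX_ctl, 109 ± 13.2 in SJ2_ctl and 94.95 ± 11.6 in WMJJ_ctl (SD, n = 3 each). Infested roots held 22.3 ± 2.07 in NemX, 10.2 ± 2.64 in SJ2 and 10.6 ± 2.68 in WMJJ, and the NemX libraries lay above all of the others. The fall in NemX was smaller by 1.44 than in SJ2 (adjusted p = 0.0007672, limma) and by 1.19 than in WMJJ, where the difference missed the threshold (adjusted p = 0.01282, limma).

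**Figure D2:**
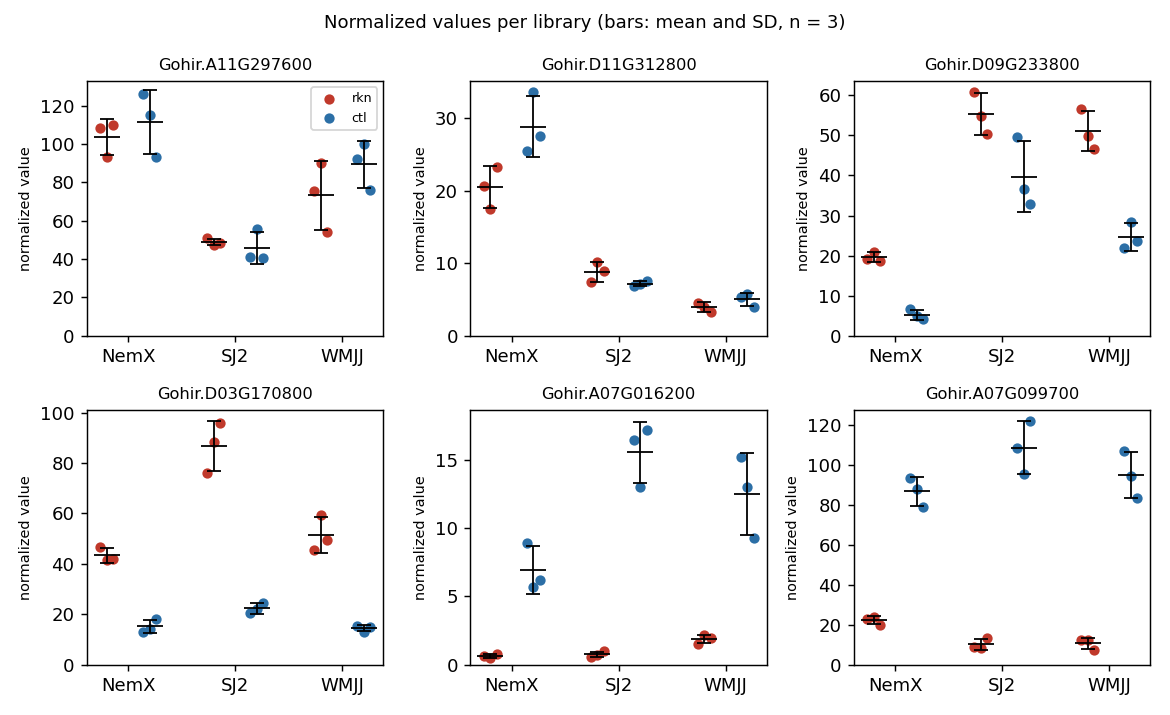
Normalized values (vertical axes, starting at 0) of 6 genes in each library of NemX, SJ2 and WMJJ, infested (rkn, red) left of control (ctl, blue), with the mean and SD of 3 libraries as bars. Gohir.D09G233800 and Gohir.D03G170800 are higher and Gohir.A07G016200 and Gohir.A07G099700 lower in all NemX_rkn than in all NemX_ctl libraries, while the TIR-NBS-LRR gene Gohir.A11G297600 overlaps between them.

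The TIR-NBS-LRR candidates of the study belong to a class of intracellular receptors that recognise pathogen molecules. The study took them for higher expression in uninfested NemX than in SJ2, leaving out genes raised in WMJJ. A response to infestation was not part of that choice. Means in NemX_ctl, SJ2_ctl and WMJJ_ctl were 111.5, 45.74 and 89.41 for Gohir.A11G297600. For Gohir.D11G312800 they were 28.82, 7.163 and 4.999. Gohir.A11G297600 had 108, 92.9 and 110 in NemX_rkn libraries 1 to 3, against 126, 115 and 93.4 in NemX_ctl, with overlapping groups and a log2 fold change of -0.10 (95% interval -0.47 to 0.27, adjusted p = 0.8518, limma). Gohir.D11G312800 had 20.7, 17.5 and 23.2 in NemX_rkn, against 25.4, 33.6 and 27.5 in NemX_ctl. Its groups did not overlap, but the log2 fold change of -0.48 (95% interval -0.88 to -0.08) did not pass (adjusted p = 0.1771, limma).

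Most genes that responded in NemX responded in the same direction in WMJJ, and fewer of them did in SJ2. Of the 266 genes upregulated in NemX, 207 (77.8%) were also called up in WMJJ, where 5.60% of all tested genes were, and 151 (56.8%) in SJ2, where 8.09% were. Of the 312 downregulated genes, 235 (75.3%) were also called down in WMJJ (4.84% of all tested genes) and 122 (39.1%) in SJ2 (5.92%). The responses of the 3 genotypes share no library. Their median log2 fold change was 1.84 in WMJJ and 1.22 in SJ2 for the upregulated genes, and -1.66 in WMJJ and -0.78 in SJ2 for the downregulated ones, beside medians of 0.00 and -0.04 over all tested genes. In sign alone, 94.0% of the upregulated and 96.5% of the downregulated genes went the same way in WMJJ, against 66.2% of all tested genes. In SJ2 these shares were 88.0% and 76.3%, against 61.3% of all tested genes. The difference between the SJ2 and WMJJ shares was not tested. Levels without nematodes moved with it: the downregulated genes had a median log2 level of 5.25 in NemX_ctl, 5.27 in WMJJ_ctl and 3.93 in SJ2_ctl, and the part of this in the result was not tested.

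**Figure D3:**
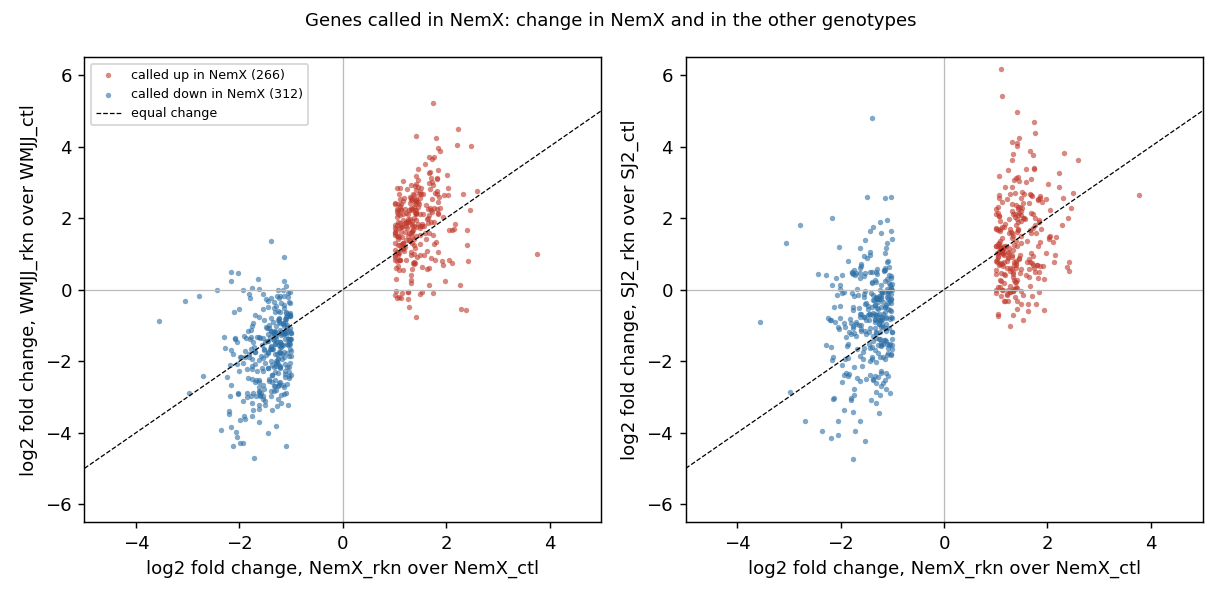
Log2 fold change of the 266 upregulated (red) and 312 downregulated (blue) genes of NemX, with NemX_rkn over NemX_ctl on the horizontal axes and the same contrast in WMJJ (left) or SJ2 (right) on the vertical axes. In WMJJ 94.0% and 96.5% of the points fall on the side of their NemX sign, and in SJ2 88.0% and 76.3%; the dashed line marks equal change.

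Genes called in both NemX and another genotype mostly moved less in NemX. Among the 207 genes upregulated in NemX and WMJJ, the median log2 fold change was 1.39 in NemX and 2.13 in WMJJ, and 183 had the larger change in WMJJ. Among the 235 downregulated in both, the medians were -1.38 in NemX and -1.99 in WMJJ, with the larger fall in WMJJ for 188. The 151 genes upregulated in NemX and SJ2 had medians of 1.41 in NemX and 2.06 in SJ2, and 125 changed more in SJ2. The 122 downregulated in NemX and SJ2 had medians of -1.39 in NemX and -1.86 in SJ2, and 93 changed more in SJ2.

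A shared core was called in all 3 genotypes, with 135 genes up and 108 down. For the 135 genes up the median log2 fold changes were 1.41 in NemX, 2.12 in SJ2 and 2.26 in WMJJ, and for the 108 genes down -1.40, -1.91 and -2.41. The difference itself passed the thresholds for part of this core: induction in NemX was smaller than in SJ2 for 32 genes and smaller than in WMJJ for 21, and the fall was smaller than in SJ2 for 21 and than in WMJJ for 18. Over all tested genes, the NemX response was called higher than that of SJ2 for 1.83% and lower for 5.22%, and higher than that of WMJJ for 0.414% and lower for 1.05%. The balance against SJ2, 856 genes higher and 2445 lower, was 1531 and 1750 with equal library totals, where the median difference of all genes was 0.24 in place of 0.03. Against WMJJ, the 194 higher and 490 lower were then 247 and 382. These differences contain the NemX libraries that also chose the genes.

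Other genes were called in NemX and WMJJ but not in SJ2. They were 72 genes upregulated in both, whose median log2 fold change in SJ2 was 0.51, and 123 genes downregulated in both, with a median of -0.29 in SJ2. For 18 of the 72 and 40 of the 123, the NemX change exceeded that of SJ2 by the test of the difference. For the rest a difference from SJ2 was not shown. These genes were chosen by their calls in the same libraries, which favours a passing difference. Of all tested genes, 1.83% had a NemX response called higher than that of SJ2 and 5.22% lower. Gohir.D09G223300, among the 72, was taken for the small p-value of its difference from SJ2 and need not be typical of them. It had 24.0, 18.6 and 18.5 in NemX_rkn against 6.29, 3.98 and 7.97 in NemX_ctl (log2 fold change 1.70 ± 0.21 SE, adjusted p = 0.0001184, limma). WMJJ was nearly the same, with 21.2 ± 1.63 in WMJJ_rkn and 5.38 ± 1.28 in WMJJ_ctl (SD, n = 3 each). In SJ2 the gene stood at 18.3 ± 0.32 in SJ2_rkn and 21.0 ± 2.29 in SJ2_ctl, so that its control level lay near the infested levels of NemX and WMJJ. The difference of the NemX from the SJ2 response was 1.89 ± 0.29 (SE, adjusted p = 0.0001329, limma), and that from WMJJ was -0.20 (95% interval -0.81 to 0.41).

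Calls found in NemX and in neither other genotype were few: 90 genes, or 15.6% of the 578. A gene called in one genotype and not in another need not differ between them. Choosing genes by calls in the same libraries also favours a passing difference. Over all tested genes, the NemX response was called higher than that of SJ2 for 1.83% and lower for 5.22%. Against WMJJ these shares were 0.414% and 1.05%. Among the 90 genes, the test of the difference passed for 34 against SJ2, for 7 against WMJJ and for 5 against both. One of these 5 was Gohir.D02G122100, with 185, 163 and 173 in NemX_rkn against 77.8, 76.2 and 62.2 in NemX_ctl. It rose by 1.27 ± 0.14 on the log2 scale (SE, adjusted p = 4.676e-05, limma), while in SJ2 it stood at 214 ± 6.54 in SJ2_rkn and 224 ± 36.5 in SJ2_ctl, and in WMJJ at 120 ± 4.50 in WMJJ_rkn and 143 ± 14.4 in WMJJ_ctl. NemX control roots thus held the least of this transcript. The NemX change exceeded that of SJ2 by 1.32 and that of WMJJ by 1.52 (adjusted p = 7.337e-05 and 0.0002056, limma).

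Upregulated genes whose change exceeded that in both other genotypes by the test of the difference numbered 3. Beside Gohir.D02G122100 they were Gohir.D11G070400 and, named after its values were seen, Gohir.A06G039500. Gohir.D11G070400 had only 2.17, 2.55 and 2.099 in NemX_rkn against 0.710, 0.613 and 0.333 in NemX_ctl, where 1 read is worth 0.156 to 0.262. Its call in NemX (1.41 ± 0.29 SE, adjusted p = 0.006846, limma) disappeared whichever of the 6 NemX libraries was left out, with adjusted p between 0.01564 and 0.0326. Its difference from WMJJ was 2.17 (adjusted p = 0.004481, limma) and was lost without any 1 of the NemX_rkn libraries or NemX_ctl3 (adjusted p from 0.01013 to 0.01346). Gohir.A06G039500 rose by 1.28 in NemX and changed by -1.03 in SJ2, where it was called down, and by -0.50 in WMJJ, where it was not called.

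Downregulated genes whose change lay below that in both other genotypes by the test of the difference numbered 5. They were Gohir.D04G027200, Gohir.D07G183000 and, named after their values were seen, Gohir.D04G103200, Gohir.D09G097301 and Gohir.D09G225900. Gohir.D04G027200 had 55.5, 50.7 and 50.4 in NemX_rkn against 142, 109 and 101 in NemX_ctl. The highest infested library lay well below the lowest control library. WMJJ stood at 224 ± 36.6 in WMJJ_rkn and 117 ± 7.80 in WMJJ_ctl, the control level being that of NemX, whose means were 52.2 ± 2.85 in NemX_rkn and 117 ± 21.9 in NemX_ctl (SD, n = 3 each). The change was -1.15 ± 0.15 (SE) in NemX, 0.92 in WMJJ and 0.62 in SJ2, and the NemX response differed from that of WMJJ by -2.07 ± 0.22 (SE, adjusted p = 3.127e-05, limma). Without NemX_ctl1 its NemX change was -0.9993, just short of the fold threshold. The log2 fold changes of the other 3 in NemX were -2.17 for Gohir.D04G103200, -1.39 for Gohir.D09G097301 and -2.16 for Gohir.D09G225900.

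**Figure D4:**
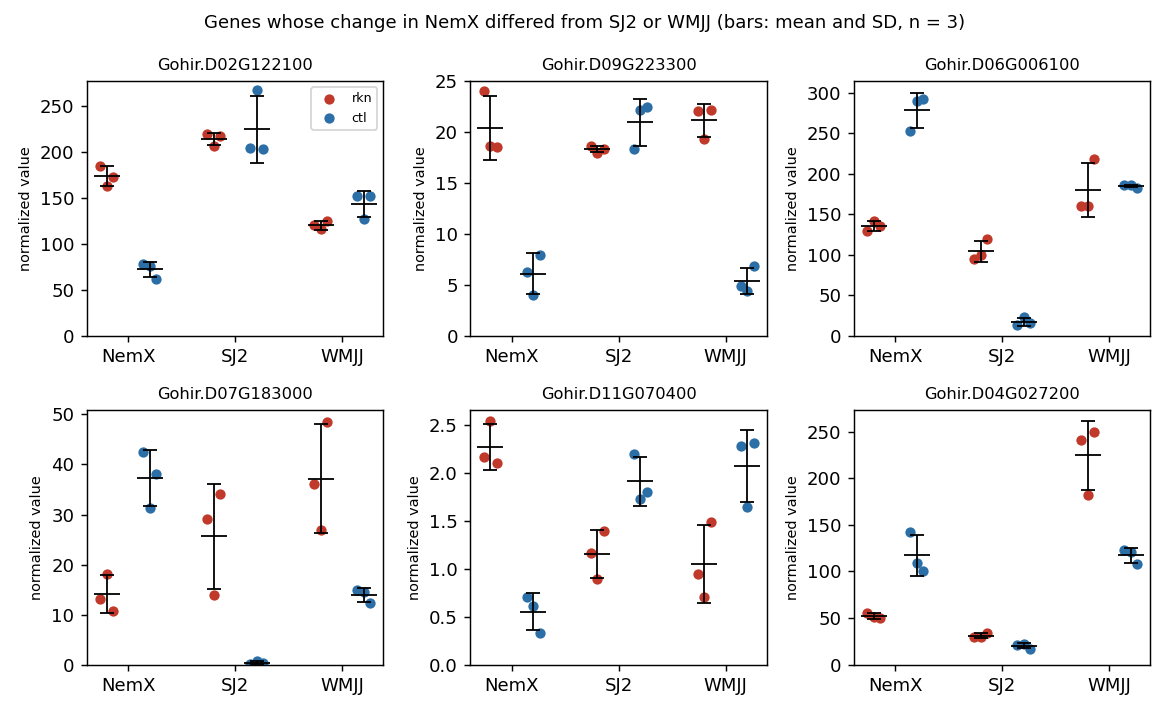
Normalized values (vertical axes, starting at 0) of the 6 genes taken by the smallest p-value of the difference between the NemX response and that of SJ2 or WMJJ, infested (rkn, red) left of control (ctl, blue), with the mean and SD of 3 libraries as bars. For Gohir.D07G183000, NemX_rkn at 14.03 lies below NemX_ctl at 37.3, whereas SJ2_rkn at 25.7 lies above SJ2_ctl at 0.401.

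Opposite responses in NemX and SJ2 were measured for a small group. Of the 312 genes downregulated in NemX, 19 (6.09%) were upregulated in SJ2, where 8.09% of all tested genes were. The difference of the responses passed for all 19, which opposite calls nearly ensure. Their median log2 fold change was -1.25 in NemX, 1.64 in SJ2 and -0.78 in WMJJ. In WMJJ 14 of the 19 were not called and 4 fell: Gohir.A09G017950, Gohir.A10G054600, Gohir.D11G217300 and Gohir.D11G274700, named after their values were seen. The reverse, up in NemX and down in SJ2, was called for Gohir.A06G039500 alone. The 19 became 11, 8, 12 and 10 without NemX_rkn1, NemX_rkn3, NemX_ctl1 and NemX_ctl2, 11 with equal library totals, 10 without an intensity trend and 35 with a term for the deepest libraries.

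Gohir.D06G006100 had the smallest p-value of a difference from SJ2 on this side. It fell to 130, 142 and 136 in NemX_rkn, against 253, 290 and 293 in NemX_ctl. In SJ2 it stood at 105 ± 12.99 in SJ2_rkn and 17.3 ± 4.77 in SJ2_ctl, and in WMJJ at 180 ± 33.2 in WMJJ_rkn and 185 ± 1.74 in WMJJ_ctl (SD, n = 3 each). Control roots thus differed far more between NemX and SJ2 than infested roots did. The changes were -1.03 ± 0.17 (SE) in NemX and 2.59 in SJ2, which differ by -3.62 ± 0.23 (SE, adjusted p = 5.004e-09, limma). The NemX change lay close to the fold threshold and was -0.9969 without NemX_rkn1, -0.9933 without NemX_ctl3 and -0.973 with equal library totals.

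Gohir.D07G183000 was called down in NemX and up in both other genotypes, the only gene of the 312 called up in WMJJ. It had 13.1, 18.2 and 10.8 in NemX_rkn against 42.6, 31.3 and 38.1 in NemX_ctl, which gave a log2 fold change of -1.40 with a standard error of 0.29 (adjusted p = 0.007955, limma). SJ2_rkn libraries held 29.1, 13.9 and 34.0, against 0.207, 0.749 and 0.247 in SJ2_ctl, which is the worth of a few reads at most. WMJJ_rkn libraries held 36.1, 26.8 and 48.5, against 14.9, 14.6 and 12.2 in WMJJ_ctl. The NemX response differed from that of SJ2 by -6.21 ± 0.42 and from that of WMJJ by -2.75 ± 0.42 (SE, adjusted p = 6.395e-09 and 0.000789, limma). Because SJ2_ctl is so low, the difference from SJ2 depends on the value added before the log2, and was -7.17 with 0.1 added and -5.55 with 1 added. Whichever of the 6 NemX libraries was left out, the gene was no longer called in NemX (adjusted p from 0.01077 to 0.05475). The same happened with 0.1 added before the log2, with equal library totals and without an intensity trend, and in each of these fits the log2 fold change stayed below 0.

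Seen from the other side, genes that responded in SJ2 or WMJJ had smaller median changes in NemX. They were chosen by their change in SJ2 or WMJJ, not in NemX. The 3787 genes upregulated in SJ2 (median log2 fold change 1.63 there) had a median of 0.22 in NemX. There 151 of them (3.987%) were called up and 19 (0.5017%) down. The 2770 downregulated in SJ2 (-1.498) had a median of -0.35 in NemX, with 122 (4.404%) called down. The 2623 genes upregulated in WMJJ (1.54) had a median of 0.52 in NemX, with 207 (7.89%) called up. The 2264 downregulated in WMJJ (-1.53) had a median of -0.62 in NemX, with 235 (10.4%) called down. Of all tested genes, 0.568% were called up in NemX and 0.666% down. Calls in the same direction were thus more frequent in all of these sets than among all tested genes. The share of the 19 opposite calls lay below that of all tested genes. The sign in NemX matched for 66.1% and 79.1% of the genes up and down in SJ2, beside 61.3% of all tested genes, so that the share for genes up in SJ2 lay close to that of all genes. It matched for 85.1% and 92.5% of the genes up and down in WMJJ, beside 66.2% of all tested genes. For 2096 of the genes upregulated in SJ2 (55.3%) and 1314 of those downregulated (47.4%), the 95% interval of the NemX change lay within -1 and 1, so that a doubling or halving in NemX was outside it. In WMJJ this held for 1096 upregulated (41.8%) and 729 downregulated genes (32.2%), against 66.6% of all tested genes. Across the 46813 genes, which are not independent replicates, the log2 fold changes of NemX correlated with those of WMJJ at r = 0.528 and with those of SJ2 at r = 0.316. Their SD was 0.453 in NemX, 0.861 in SJ2 and 0.749 in WMJJ.

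The largest NemX changes were also looked up in the other genotypes. Of the 22 genes with a log2 fold change above 2, 15 were called up in SJ2 and 13 in WMJJ. Of all tested genes, 8.09% were called up in SJ2 and 5.60% in WMJJ. The medians of the 22 were 2.25 in NemX, 1.91 in SJ2 and 1.69 in WMJJ. Of the 33 genes below -2, 12 were called down in SJ2 and 22 in WMJJ, beside 5.92% and 4.84% of all tested genes. Their medians were -2.16 in NemX, -0.86 in SJ2 and -2.08 in WMJJ. Both sets were picked by size in NemX, so the larger NemX medians follow in part from that choice.

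Called genes were spread over all A and D chromosomes. The A subgenome held 128 upregulated and 155 downregulated genes, 49.0% of the calls and 49.5% of the tested genes, and the D subgenome held 138 and 157, 51.0% of the calls and 50.3% of the tested genes. Chromosome A10 had the highest share, 33 of 1661 tested genes (1.99%, beside 1.23% of all tested genes), followed by D10 with 29 of 1755 (1.65%). The lowest shares were 0.873% on A01 (14 of 1604) and 0.885% on D04 (12 of 1356). Directions were uneven on some chromosomes. On A12, 1.15% of the 2006 tested genes fell and 0.199% rose, while on A09 15 genes rose (0.860%) and 6 fell (0.344%). Chromosomes 11, on which the TIR-NBS-LRR candidates lie, stood near the average, with 30 called genes of 2392 (1.25%) on A11 and 34 of 2480 (1.37%) on D11. These shares were counted without a test.

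**Figure D5:**
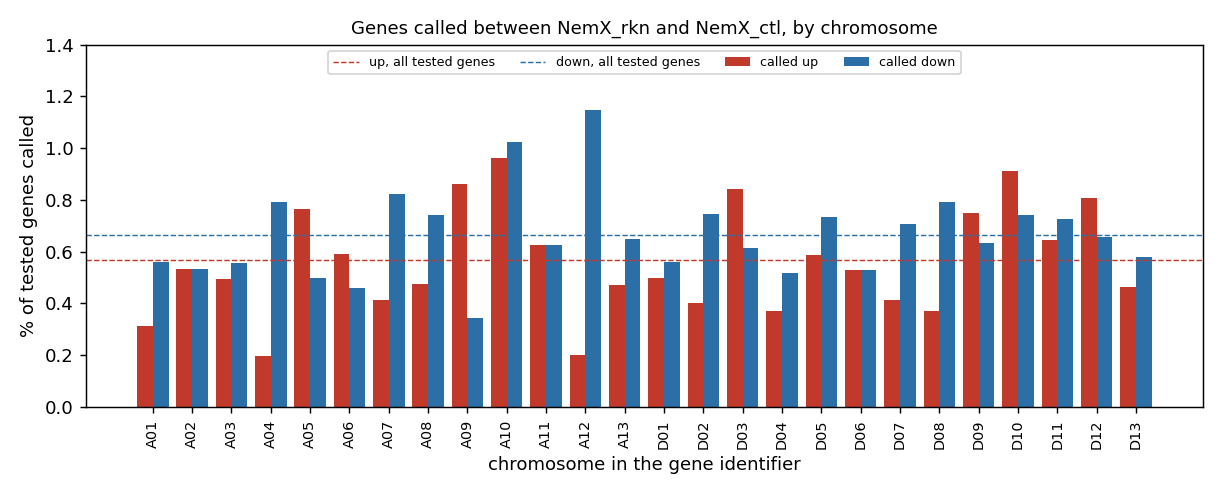
Percentage of the tested genes of each chromosome called up (red bars) or down (blue bars) in NemX_rkn against NemX_ctl, with dashed lines at the shares over all tested genes (0.568% up and 0.666% down). A10 and D10 have the highest shares of both directions together, and on A12 the share that fell (1.15%) exceeds the share that rose (0.199%).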

How the data were processed

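RNA-seq reads of NemX, SJ2 and WMJJ roots were trimmed by the authors with Trimmomatic 0.39 after FastQC 0.11.9, pseudo-aligned with kallisto 0.46.1 to TM-1 UTx v2.1 transcripts and summed per gene with tximport for edgeR 3.13 and DESeq2. The authors deposited a table of normalized signal values near CPM. Its exact normalization and filter are not given in the sources used here. Between 60.2 and 73.8% of low values (0.5 to 3.5 reads) lay within 0.1 read of a whole number, so counts were not recovered. Depth was taken here from the worth of 1 read. The study also lists the pseudo-aligned reads of each library, which are most numerous in the same library of each group. A plan for count tests was replaced by one for normalized values.

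Genes with a mean of at least 1 were tested in R 4.3.3 with limma 3.58.1 on log2(value + 0.5). One model with 6 group coefficients was fitted to all 18 libraries (eBayes with an intensity trend), p-values were adjusted over 46813 genes (Benjamini-Hochberg), and genes were called at the thresholds of the study (adjusted p 0.01, log2 fold change of 1 in size). Responses were compared as interactions. Replicates are called biological in the labels. The fit was also run on simulated data with independent noise in each gene and library. That simulation lacked the pattern shared by the deepest libraries and does not bear on it.

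The comparison, the candidates and the gene lists were chosen with earlier results of these data known. Named genes are the TIR-NBS-LRR candidates, the 2 upregulated and 2 downregulated NemX genes with the smallest p-value and no overlap between libraries, and in each interaction the 2 higher and 2 lower with the smallest p-value that were also called in NemX in that direction. Lists by annotation were not used, since identifiers matched no names. Alternatives were 0.1 or 1 added before the log2, no filter, a mean of at least 5, equal library totals, median-of-ratios scaling, no intensity trend, the replicate number as a block, a term for the deepest libraries, the NemX libraries alone and leaving out each NemX library. The 12 libraries other than the deepest were added after seeing the data.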

Additional observations from a re-analysis of the deposited data

Results flagged for a closer look

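Differences between the NemX response and that of another genotype were tested as interactions in limma over 46813 genes. The NemX response was higher than that of SJ2 for 856 genes and lower for 2445 (1531 and 1750 with equal library totals), and higher than that of WMJJ for 194 and lower for 490. Among the named genes, the difference between NemX and SJ2 was 1.32 for Gohir.D02G122100, 1.89 for Gohir.D09G223300, -3.62 for Gohir.D06G006100 and -6.21 for Gohir.D07G183000, the last being -7.17 with 0.1 and -5.55 with 1 added before the log2. The difference between NemX and WMJJ was 1.52 for Gohir.D02G122100, 2.17 for Gohir.D11G070400, -2.07 for Gohir.D04G027200 and -2.75 for Gohir.D07G183000. Each stands out because the change under infestation differed between genotypes by the test of the difference itself.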

How the results depend on the processing

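Of 296 values of named genes under alternative settings, 267 kept their direction and side of the threshold, 29 lost the call and 0 reversed. For the counts of NemX calls, 404 genes were up with a term for the deepest libraries, 129 were up with the NemX libraries alone, and 191 were down without an intensity trend. Leaving out 1 NemX library gave 118 to 229 up and 129 to 209 down. Equal library totals gave 316 up and 251 down and moved the median of all genes to 0.03. For NemX against SJ2, equal totals gave 1531 genes higher and 1750 lower, and leaving out 1 library gave 603 to 739 higher and 2039 to 2267 lower. For NemX against WMJJ, the higher and lower counts were 81 and 234 without a trend, 415 and 795 with the deepest-library term, 116 and 219 in the 12 libraries other than the deepest, an alternative chosen after seeing the data, and 75 to 131 and 245 to 390 on leaving out 1 library. The share of NemX upregulated genes also up in SJ2 was 48.4% with equal totals (52.5 to 56.3% on leaving out 1 library), and that up in WMJJ was 72.0% with the deepest-library term (73.5 to 82.5%). The share of downregulated genes also down in SJ2 was 47.4% with equal totals and 47.8% in the 12 libraries (36.1 to 41.0%), and that down in WMJJ was 69.8 to 80.7% on leaving out 1 library. Genes down in NemX and up in SJ2 numbered 11 with equal totals, 10 without a trend, 35 with the deepest-library term and 8 to 16 on leaving out 1 library. The A subgenome held 47.3 to 53.2% of calls on leaving out 1 library. Neither TIR-NBS-LRR candidate was called under any setting. The causes of these shifts were not tested. The median standard error of the NemX log2 fold change was largest (0.375) in the class of genes with the lowest level. The part of depth in this was not tested.

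A pairing of NemX libraries by replicate number was not seen. Deviations of NemX_rkn and NemX_ctl libraries with the same number correlated at -0.190, 0.00377 and -0.224. Between libraries with different numbers the values ran from -0.204 to 0.347. The highest was that of NemX_rkn1 and NemX_ctl3, the deepest libraries. Deviations cancel within each group and carry the pattern of the deepest libraries, so these values cannot decide whether the numbers pair libraries. A replicate block gave 338 genes up and 379 down in NemX, and changed the call of no named gene.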

Other observations

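Downregulated genes of NemX stood next to each other more often than tested genes in general. With genes ordered by the numbers in their identifiers, an order that was not checked against a genome annotation, 20 of the 312 downregulated genes (6.41%) had an adjacent tested gene that was also downregulated, while 1.33% of all tested genes had such a neighbour. Among upregulated genes the share was 1.504%, beside 1.13% of all tested genes. The longest run in either direction was 2 genes. Adjacent copies of a gene may share reads in pseudo-alignment, and the part of this was not tested.

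The 165 genes called without each of the 6 NemX libraries in turn are a subset of the 578, picked from the same libraries. Of the 85 upregulated, 81.2% were also up in WMJJ and 52.9% in SJ2 (77.8% and 56.8% of all 266), and of the 80 downregulated, 86.3% were also down in WMJJ and 41.3% in SJ2 (75.3% and 39.1% of all 312), while 6.25% were up in SJ2. Under 15 of the 17 alternatives, leaving aside the stricter filter (a mean of at least 5) and the 12 libraries other than the deepest, 64 upregulated and 70 downregulated genes were called each time.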
